A study of Homo sapiens with 15 samples.

Results

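Lysosome and autophagy genes were followed through short-term and long-term exposure to doxorubicin in a breast cancer cell model. The set held 41 genes, listed by symbol, and each gene was read through its brightest Affymetrix probe set carrying that symbol alone. For 40 of the 41, out of 19775 genes in all, such a probe set was present. The probe set for GLB1, lysosomal beta-galactosidase, carries symbols of more than 1 gene and was not analysed here. By role, the 40 were 22 lysosomal genes, 15 autophagy genes and 3 transcription factors.

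The cells were CAL51, a triple-negative breast cancer line, and CALDOX, its descendant selected by long growth in 0.4 µM doxorubicin. The 5 groups, with 3 independent cultures and 1 array per culture, were untreated CAL51, CAL51 after 24 h in 0.4 µM doxorubicin, CAL51 after 48 h in the same dose, untreated CALDOX, and CALDOX given 4 µM for 24 h after 3 passages without drug. All 5 groups thus descend from 1 line, and the resistant cells from 1 selection as far as the labels say. Drug-free passages are described for the treated CALDOX cultures, and the labels do not say whether untreated CALDOX was free of drug at harvest. Doxorubicin is an anthracycline that poisons topoisomerase II, breaks DNA and, as a weak base, can gather in acidic compartments.

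Lysosomes are acidic organelles in which hydrolases break down proteins, glycans and lipids delivered by endocytosis and by autophagy. In autophagy a double membrane grows around cytoplasm, is coated with ATG8 family proteins joined to lipid, and fuses with the lysosome. Many genes of both systems can be switched on by TFEB, TFE3 and MITF, related basic helix-loop-helix factors that bind a sequence called the CLEAR element, an E-box with fixed neighbours. These factors are controlled mainly by phosphorylation and by movement into the nucleus, which an RNA array does not measure.

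The core of the CLEAR element lies in the promoters of part of the lysosomal group, and these are shown because the element is the known link between the factors and these genes. RefSeq promoters (build GRCh38.p14, 250 bases before to 50 after the start) matched 31 of the 40 genes by symbol, 14 lysosomal genes, 14 autophagy genes and the 3 factors. The E-box with its fixed neighbour, TCACGTG, was searched on both strands. It lies within 7 of the 14 lysosomal promoters, in 0 of the 14 autophagy promoters, and in 3.82% of all 27305 promoters. Capitals mark that motif, with the reverse-strand copy that overlaps it where there is one, and the bases shown lie before the start, 5′ to 3′ on the gene's strand:
LAMP1, chr13:113296989-113297238, + strand: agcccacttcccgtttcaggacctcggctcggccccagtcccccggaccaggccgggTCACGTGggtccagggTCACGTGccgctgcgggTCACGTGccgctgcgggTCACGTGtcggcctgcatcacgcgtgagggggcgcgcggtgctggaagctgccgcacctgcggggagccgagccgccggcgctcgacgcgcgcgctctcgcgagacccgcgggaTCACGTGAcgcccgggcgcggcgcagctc
GAA, chr17:80101479-80101580, + strand: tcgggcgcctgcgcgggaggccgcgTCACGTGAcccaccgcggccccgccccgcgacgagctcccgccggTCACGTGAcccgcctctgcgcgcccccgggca
CTSD, chr11:1763943-1763999, - strand: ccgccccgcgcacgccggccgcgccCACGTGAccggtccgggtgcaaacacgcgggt
CTSA, chr20:45891267-45891334, + strand: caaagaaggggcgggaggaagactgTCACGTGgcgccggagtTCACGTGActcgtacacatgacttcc
NEU1, chr6:31862917-31862973, - strand: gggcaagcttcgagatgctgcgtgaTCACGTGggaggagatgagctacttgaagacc
ATP6V0D1, chr16:67481185-67481242, - strand: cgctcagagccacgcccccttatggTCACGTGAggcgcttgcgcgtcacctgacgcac
MCOLN1, chr19:7522557-7522623, + strand: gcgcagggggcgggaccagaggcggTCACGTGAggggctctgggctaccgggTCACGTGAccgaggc
Before the start, LAMP1 holds 5 separate copies, CTSA, GAA and MCOLN1 hold 2 each, and CTSD, NEU1 and ATP6V0D1 hold 1 each. The full palindrome, GTCACGTGAC, which contains TCACGTG on both strands, is found for GAA and MCOLN1 only among the 31 promoters, and in 0.381% of all promoters. The plain E-box CACGTG, contained in both longer motifs, lies in the promoters of the same 7 genes and in 7.43% of all. A match is a run of letters and not a measured binding site.

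Values below are log2 intensities from RMA, so a difference of 1 is a doubling. Over all 54675 probe sets the Pearson correlation was 0.993 to 0.998 between arrays of a group and 0.979 to 0.996 between groups. The epithelial markers EPCAM, KRT8 and KRT18 read 11.75 to 14.55 on all 15 arrays, while KRT19 read 6.46 to 11.83 and CDH1 5.84 to 8.98. The mesenchymal markers VIM, FN1 and CDH2 were bright too, at 10.80 to 13.13, 11.03 to 13.77 and 10.32 to 10.95. Their means were 12.58, 11.37 and 10.76 in untreated CAL51 and 10.86, 13.43 and 10.74 in untreated CALDOX. The receptors that triple-negative cells lack, ESR1, PGR and ERBB2, read 8.13 to 8.54, 5.93 to 6.31 and 9.87 to 10.16, and without detection calls these levels do not show presence or absence. Macrophages are rich in lysosomes: the 6 macrophage markers analysed (CD14, CD163, CSF1R, ITGAM, LYZ and MRC1) read 5.15 to 7.37 on every array, and their summed log2 level was 36.2 to 36.8 in untreated CAL51, 35.9 to 37.0 at 24 h, 36.5 to 36.9 at 48 h, 36.7 to 37.8 in untreated CALDOX and 36.6 to 37.0 in treated CALDOX. The summed level of 5 epithelial markers (EPCAM, KRT8, KRT18, KRT19 and CDH1) itself moved with drug, from 52.3 to 52.6 without it to 54.4 to 55.7 at 24 h and 57.0 to 58.0 at 48 h in CAL51, and stood at 55.1 to 55.5 in untreated and 55.9 to 56.5 in treated CALDOX. At 48 h all 5 were higher, while in untreated CALDOX KRT19 (4.76 ± 0.07) and EPCAM (0.44 ± 0.09) were higher than in untreated CAL51 and KRT8 (-0.47 ± 0.06), KRT18 (-0.48 ± 0.05) and CDH1 (-1.35 ± 0.15) lower. The part of these markers in the results below was not tested. In such bulk RNA, fewer cells with a transcript and less of it per cell cannot be told apart.

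**Figure D1:**
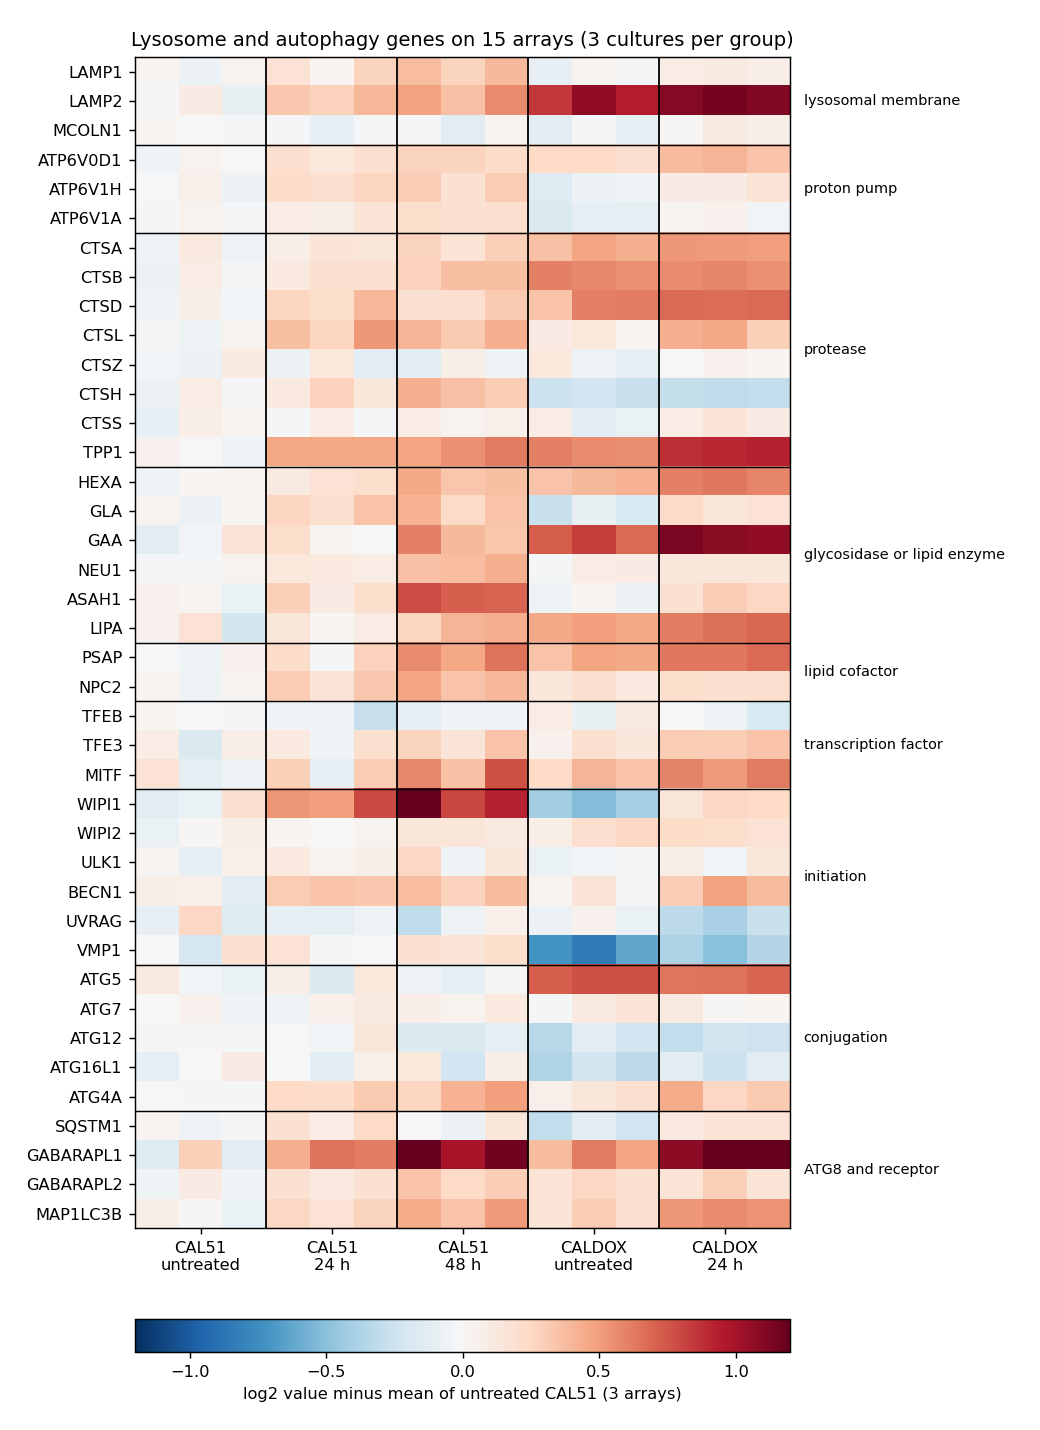
Each row is 1 of the 40 genes, in blocks by role, and each column 1 of the 15 arrays; colour is the log2 value minus the mean of the 3 untreated CAL51 arrays, with the scale ending at ±1.2. Red spreads over most lysosomal rows at 48 h, LAMP2, GAA and ATG5 are red in both CALDOX groups, and VMP1 is blue in both.

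In CAL51 given 0.4 µM doxorubicin, part of the set was higher at 24 h and most of it at 48 h. No member was called lower at either time on the probe set used. The labels give no time for the untreated cultures, so drug and time in culture cannot be told apart. At 24 h, 13 of the 40 members rose, where 10.1% of all 19775 genes were called, 5.77% higher and 4.34% lower. At 48 h, 27 of 40 rose, where 21.6% of all genes were called, 10.5% higher and 11.2% lower. The median log2 fold change of the members was 0.16 at 24 h and 0.31 at 48 h, beside -0.03 and -0.02 over all genes. Most members are bright, 36 of the 40 being above the median gene, and among such brighter genes 9.24% were called higher at 24 h and 16.8% at 48 h.

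These calls come from limma over 15 arrays with Benjamini-Hochberg adjusted p under 0.05, and ± marks the limma standard error of a log2 fold change with n = 3 arrays a group. At an unadjusted p under 0.05, 21 members were higher and 0 lower at 24 h, and 28 higher and 1 lower at 48 h. The 24 h count is not firm: it was 7 without untreated CAL51 replicate 3 or without CAL51 24 h replicate 3, 8 without replicate 1 of either group, and 5 in a fit of the 6 arrays compared alone. The 48 h count stayed between 25 and 27 with any 1 array left out. The 24 h and 48 h comparisons share the untreated CAL51 arrays.

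**Figure D2:**
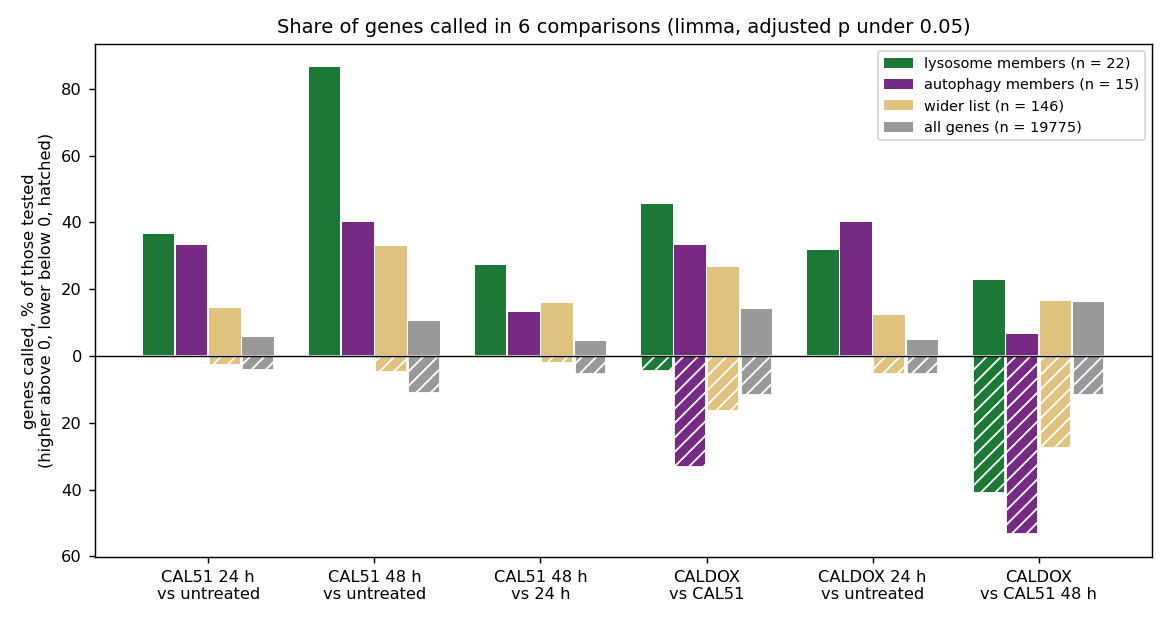
Bars give the percent of genes called higher (above 0) or lower (below 0, hatched) in 6 comparisons, for the 22 lysosomal members, the 15 autophagy members, the wider list of 146 other lysosome and autophagy genes and all 19775 genes. At 48 h in CAL51 the bar of the lysosomal members stands at 86.4% and that of all genes at 10.5%.

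Of the lysosomal members, 8 of 22 rose at 24 h and 19 of 22 at 48 h. Of the autophagy members, 5 of 15 rose at 24 h and 6 of 15 at 48 h. The median log2 fold change at 48 h was 0.35 for the lysosomal and 0.13 for the autophagy members. Whether the 2 groups of genes differ was not tested. Counted alone, 12 of the 14 lysosomal proteases and glycan or lipid hydrolases rose at 48 h, the others being CTSZ and CTSS.

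Among lysosomal membrane proteins, LAMP1 and LAMP2 rose and MCOLN1 was not called. LAMP1 and LAMP2 are heavily glycosylated and line the inner face of the lysosomal membrane. On the log2 scale LAMP2 read 9.04, 9.16 and 8.97 in the untreated CAL51 cultures, 9.38, 9.34 and 9.45 after 24 h and 9.54, 9.41 and 9.62 after 48 h, against 9.90, 10.12 and 9.99 in untreated and 10.16, 10.20 and 10.17 in treated CALDOX. All arrays of treated CAL51 lay above all untreated ones, and both CALDOX groups lay above every CAL51 array. LAMP2 changed by 0.33 ± 0.07 (adjusted p = 0.0075) at 24 h and 0.47 ± 0.07 (adjusted p = 1.8e-04) at 48 h. Its 3 other probe sets were called at neither time, with 48 h changes of -0.05 to 0.40. LAMP1 changed by 0.34 ± 0.07 (adjusted p = 0.0014) at 48 h, with arrays at 12.73 to 12.85 against 12.39 to 12.51. MCOLN1, a calcium channel of the lysosomal membrane whose promoter holds the full CLEAR palindrome, changed by -0.04 ± 0.06 (adjusted p = 0.71).

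The 3 subunits of the vacuolar ATPase, the pump that acidifies lysosomes, were called higher at 48 h by small amounts. ATP6V1A, ATP6V1H and ATP6V0D1 changed by 0.20 ± 0.05, 0.26 ± 0.06 and 0.25 ± 0.05. ATP6V0D1 arrays lay at 10.76 to 10.80 against 10.49 to 10.57 without drug. The ATP6V1H call rests on its brightest probe set: with the most variable one the 48 h change was -0.27 (adjusted p = 0.12), and with the mean of its probe sets -0.03 (adjusted p = 0.87).

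Proteases of the lysosome rose in 6 of 8 cases at 48 h. TPP1, a tripeptidyl peptidase lost in a childhood form of neuronal lipofuscinosis, was among the first. The TPP1 values were 9.01, 8.96 and 8.91 in untreated CAL51, 9.42, 9.43 and 9.42 at 24 h, 9.44, 9.51 and 9.58 at 48 h, 9.56, 9.53 and 9.52 in untreated CALDOX and 9.85, 9.87 and 9.88 in treated CALDOX. The 24 h cultures lay close together and above all untreated CAL51 cultures, and treated CALDOX lay above every other group. TPP1 changed by 0.46 ± 0.05 (adjusted p = 3.3e-05) at 24 h and 0.55 ± 0.05 (adjusted p = 2.0e-06) at 48 h. No other TPP1 probe set was called at 24 h, while at 48 h at least 1 other was called higher. Both calls held in all 24 alternative settings, with changes down to 0.20 at 24 h and 0.28 at 48 h.

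The cysteine protease CTSL rose by 0.38 ± 0.07 (adjusted p = 0.0030) at 24 h and stood at 0.38 ± 0.07 at 48 h. For CTSB the arrays gave 9.97, 10.13 and 10.02 in untreated CAL51. After 24 h in drug CAL51 gave 10.15, 10.23 and 10.23, and after 48 h 10.31, 10.40 and 10.40. Untreated CALDOX gave 10.64, 10.61 and 10.59, and treated CALDOX 10.60, 10.62 and 10.58. CTSB, the most studied lysosomal cysteine protease, thus lay higher in each drug group than in any untreated CAL51 culture, and higher still in both CALDOX groups. Its change at 48 h was 0.33 ± 0.06 (adjusted p = 4.0e-04), while the 24 h change, 0.17 ± 0.06, was not called (adjusted p = 0.079).

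The main aspartic protease of lysosomes is CTSD. On the log2 scale CTSD read 8.41, 8.53 and 8.43 in the untreated CAL51 cultures, 8.71, 8.66 and 8.85 after 24 h and 8.64, 8.66 and 8.77 after 48 h, against 8.80, 9.06 and 9.07 in untreated and 9.13, 9.13 and 9.14 in treated CALDOX. Its treated CAL51 arrays lay above the untreated ones, and untreated CALDOX ran from below the highest 24 h array to above it. CTSD changed by 0.29 ± 0.08 (adjusted p = 0.024) at 24 h and 0.23 ± 0.08 (adjusted p = 0.038) at 48 h. CTSA, a carboxypeptidase that also shields beta-galactosidase and NEU1, changed by 0.24 ± 0.06 (adjusted p = 0.011) at 48 h.

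CTSH, an aminopeptidase of the cathepsin family, moved in opposite directions in the short-term and the long-term setting. The CTSH values were 10.24, 10.39 and 10.29 in untreated CAL51, 10.42, 10.58 and 10.45 at 24 h, 10.74, 10.66 and 10.60 at 48 h, 10.05, 10.07 and 10.03 in untreated CALDOX and 10.02, 10.00 and 10.01 in treated CALDOX. The 48 h arrays lay above and both CALDOX groups lay below every untreated CAL51 array. The changes were 0.36 ± 0.06 (adjusted p = 4.4e-04) at 48 h and -0.26 ± 0.06 (adjusted p = 0.0044) for untreated CALDOX. CTSZ and CTSS were called in no comparison: CTSZ arrays ran from 7.96 to 8.22 and CTSS arrays from 7.45 to 7.74 over all 15 cultures.

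All 6 glycosidases and lipid hydrolases with a probe set rose at 48 h on the brightest one, though GLA alone was called at 24 h. ASAH1, acid ceramidase, splits ceramide into sphingosine and a fatty acid. For ASAH1 the arrays gave 10.30, 10.29 and 10.17 in untreated CAL51. After 24 h in drug CAL51 gave 10.54, 10.35 and 10.47, and after 48 h 11.04, 10.97 and 10.95. Untreated CALDOX gave 10.19, 10.28 and 10.18, and treated CALDOX 10.44, 10.55 and 10.50. The 48 h cultures stood clear of all others, and untreated CALDOX overlapped untreated CAL51. ASAH1 changed by 0.20 ± 0.06 (adjusted p = 0.062) at 24 h, by 0.73 ± 0.06 (adjusted p = 5.0e-07) at 48 h, which is 1.66-fold, and by 0.54 ± 0.06 (adjusted p = 1.1e-04) from 24 h to 48 h.

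GAA, acid alpha-glucosidase, degrades glycogen in lysosomes. On the log2 scale GAA read 7.06, 7.15 and 7.33 in the untreated CAL51 cultures, 7.39, 7.21 and 7.19 after 24 h and 7.79, 7.57 and 7.51 after 48 h, against 7.90, 8.01 and 7.86 in untreated and 8.30, 8.26 and 8.25 in treated CALDOX. Untreated CAL51 and the 24 h arrays overlapped, the 48 h arrays lay above both, and CALDOX lay higher again. GAA changed by 0.44 ± 0.09 (adjusted p = 0.0013) at 48 h. GAA is dimmer than the median gene, so its fold changes may be understated.

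GLA, alpha-galactosidase A, clears globotriaosylceramide. The GLA values were 10.41, 10.29 and 10.39 in untreated CAL51, 10.62, 10.57 and 10.70 at 24 h, 10.78, 10.60 and 10.70 at 48 h, 10.10, 10.27 and 10.18 in untreated CALDOX and 10.59, 10.51 and 10.53 in treated CALDOX. Drug-treated cultures of each line lay above the untreated cultures of that line, and untreated CALDOX below all CAL51 arrays. GLA changed by 0.27 ± 0.07 (adjusted p = 0.016) at 24 h and 0.33 ± 0.07 (adjusted p = 0.0017) at 48 h. The alpha subunit of beta-hexosaminidase, HEXA, rose by 0.38 ± 0.06 at 48 h. NEU1, a sialidase, rose by 0.38 ± 0.05 and LIPA, lysosomal acid lipase, by 0.37 ± 0.08. The mean over probe sets ended the calls of HEXA (0.06, adjusted p = 0.60) and LIPA (0.08, adjusted p = 0.39), whose other probe sets are dimmer and were not called.

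Lipid cofactors followed the hydrolases. PSAP encodes the precursor of the saposins, which lift sphingolipids to their enzymes. For PSAP the arrays gave 11.51, 11.46 and 11.56 in untreated CAL51. After 24 h in drug CAL51 gave 11.73, 11.49 and 11.79, and after 48 h 12.08, 11.98 and 12.16. Untreated CALDOX gave 11.85, 11.99 and 11.97, and treated CALDOX 12.15, 12.15 and 12.18. The 24 h arrays overlapped the untreated ones, and the 48 h arrays lay above both. PSAP changed by 0.56 ± 0.08 (adjusted p = 5.1e-05) at 48 h, and a second probe set gave 0.34 at 24 h and 0.59 at 48 h, both called. NPC2, which takes part in moving cholesterol out of the lysosome, rose by 0.26 ± 0.06 at 24 h and 0.40 ± 0.06 at 48 h.

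Of the 3 transcription factors, MITF was the one with the clearest rise. On the log2 scale MITF read 9.12, 8.84 and 8.89 in the untreated CAL51 cultures, 9.24, 8.85 and 9.25 after 24 h and 9.53, 9.30 and 9.71 after 48 h, against 9.19, 9.35 and 9.30 in untreated and 9.55, 9.46 and 9.57 in treated CALDOX. At 24 h, replicate 2 lay within the untreated range and the other two above it, and at 48 h all 3 lay above the untreated cultures. MITF changed by 0.57 ± 0.12 (adjusted p = 0.0018) at 48 h, and its second brightest probe set by 0.25 at 24 h and 0.38 at 48 h, both called. TFE3 rose by 0.25 ± 0.08 (adjusted p = 0.036) on its brightest probe set and changed by -0.14 (adjusted p = 0.44) on its most variable one. TFEB read 8.04 to 8.09 in untreated CAL51 and 7.95 to 8.03 at 48 h, a change of -0.07 ± 0.08 (adjusted p = 0.61).

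Among the autophagy members, 3 of the 4 ATG8 and receptor genes, 2 of the 6 initiation genes and 1 of the 5 conjugation genes were called higher at 48 h, and these roles were not tested against each other. The largest rise of the whole set was in GABARAPL1, an ATG8 family protein that coats the growing autophagosome. The GABARAPL1 values were 7.09, 7.53 and 7.13 in untreated CAL51, 7.69, 7.90 and 7.87 at 24 h, 8.59, 8.24 and 8.41 at 48 h, 7.63, 7.88 and 7.72 in untreated CALDOX and 8.32, 8.53 and 8.80 in treated CALDOX. Every drug-treated array lay above all untreated arrays of its own line, and untreated CALDOX lay above untreated CAL51. GABARAPL1 changed by 0.57 ± 0.13 (adjusted p = 0.011) at 24 h and 1.16 ± 0.13 (adjusted p = 8.7e-06) at 48 h, which is 2.24-fold. Its second probe set gave 0.26 at 24 h, not called, and 0.59 at 48 h, called, and in untreated CALDOX -0.02, not called. MAP1LC3B, the ATG8 protein used as the standard autophagosome marker, rose by 0.23 ± 0.06 and 0.44 ± 0.06 at the 2 times. GABARAPL2 rose by 0.29 ± 0.06 at 48 h. SQSTM1 (p62), a receptor that ties ubiquitinated cargo to ATG8 proteins, changed by 0.17 ± 0.07 (adjusted p = 0.13) at 24 h and 0.03 ± 0.07 (adjusted p = 0.84) at 48 h.

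**Figure D3:**
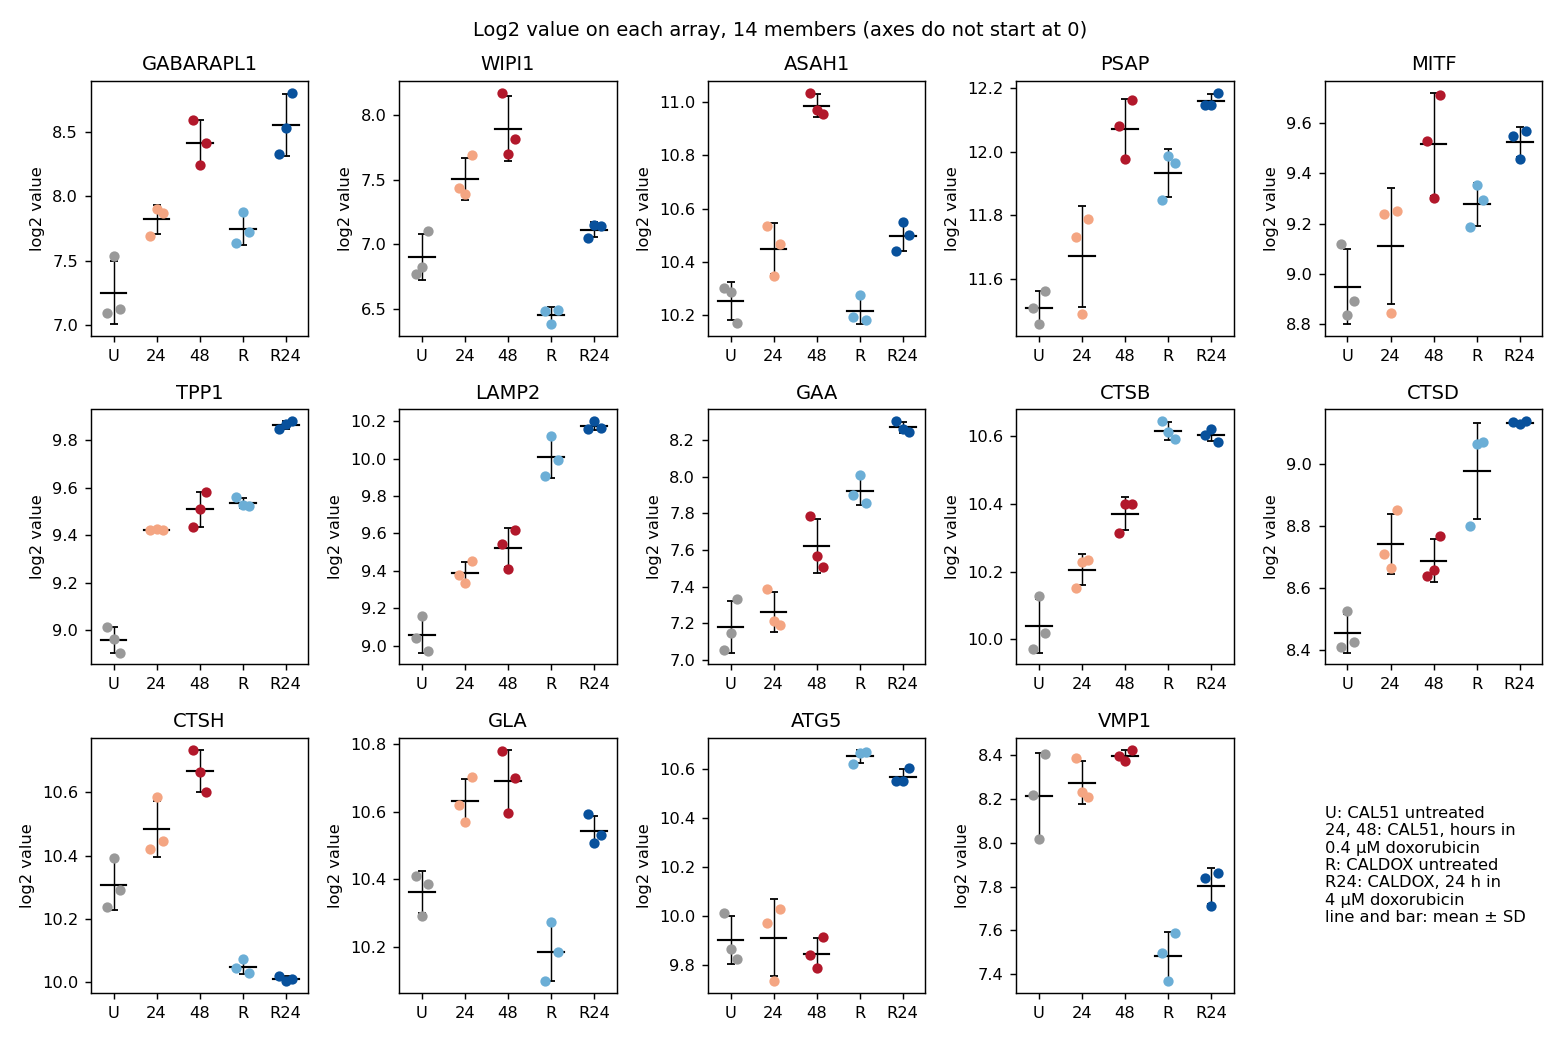
Each dot is the log2 value of 1 array for the 14 members that were called with a change of at least 0.5 in a comparison, with the mean and SD of the 3 cultures; vertical axes differ and do not start at 0. GABARAPL1 and WIPI1 climb with time in CAL51, WIPI1 starts lowest in untreated CALDOX, and ATG5 and VMP1 separate the lines.

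Among genes that start autophagosome formation, WIPI1 and WIPI2 bind the lipid phosphatidylinositol 3-phosphate on the forming membrane. For WIPI1 the arrays gave 6.77, 6.82 and 7.10 in untreated CAL51. After 24 h in drug CAL51 gave 7.43, 7.39 and 7.69, and after 48 h 8.17, 7.70 and 7.82. Untreated CALDOX gave 6.48, 6.38 and 6.49, and treated CALDOX 7.05, 7.15 and 7.14. The CAL51 arrays at 24 h and 48 h lay above all untreated ones, and untreated CALDOX below every other group. WIPI1 changed by 0.61 ± 0.11 (adjusted p = 0.0027) at 24 h and 1.00 ± 0.11 (adjusted p = 1.0e-05) at 48 h, and its second probe set by 0.61 and 1.23. WIPI1 is dimmer than the median gene.

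WIPI2 changed by 0.13 ± 0.06 (adjusted p = 0.13) at 48 h and was not called. BECN1, the scaffold of the lipid kinase complex of autophagy, rose by 0.32 ± 0.07 and 0.34 ± 0.07. The initiating kinase ULK1 changed by 0.11 ± 0.07 (adjusted p = 0.35), and UVRAG, a partner of BECN1, by -0.10 ± 0.10 (adjusted p = 0.56) at 48 h. Neither was called in any comparison.

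Among the genes that conjugate ATG8 proteins to lipid, ATG4A alone was called after drug in CAL51. This protease, which trims and releases ATG8 proteins, rose by 0.26 ± 0.07 and 0.39 ± 0.07. ATG12, ATG5 and ATG16L1, which form 1 complex, changed at 48 h by -0.15 ± 0.06, -0.05 ± 0.07 and -0.01 ± 0.09. ATG7, the activating enzyme of both conjugation systems, changed by 0.08 ± 0.06. These 4 changes were not called.

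Several calls in the drug-treated CAL51 cultures depended on single arrays or on the probe set. With 1 array left out the adjusted p rose above 0.05 for 7 of the 13 calls at 24 h: CTSD (adjusted p = 0.10 without CAL51 24 h replicate 3), GLA (adjusted p = 0.070 without CAL51 24 h replicate 3), ATP6V0D1 (adjusted p = 0.13 without untreated CAL51 replicate 1), ATP6V1H (adjusted p = 0.11 without untreated CAL51 replicate 3), GABARAPL1 (adjusted p = 0.057 without untreated CAL51 replicate 1), MAP1LC3B (adjusted p = 0.13 without untreated CAL51 replicate 3) and ATG4A (adjusted p = 0.093 without CAL51 24 h replicate 3), each with its highest value. The same happened to 3 of the 27 calls at 48 h: CTSA (adjusted p = 0.051 without untreated CAL51 replicate 1), CTSD (adjusted p = 0.13 without CAL51 48 h replicate 3) and TFE3 (adjusted p = 0.18 without untreated CAL51 replicate 2). TFE3 then changed by 0.17 in place of 0.25. The most variable probe set of a gene also ended the calls of CTSB at 48 h (0.17, adjusted p = 0.34) and ATP6V1H at 24 h (-0.10, adjusted p = 0.67). In that fit CTSD at 48 h (0.23, adjusted p = 0.052) and ATP6V0D1 at 24 h (0.18, adjusted p = 0.067) lost their calls too. These genes have only 1 single-symbol probe set each, so their changes stayed the same while the adjusted p moved. The mean over probe sets ended the calls of LAMP2 (0.06, adjusted p = 0.81) and ATP6V1H (0.04, adjusted p = 0.85) at 24 h and LAMP2 (0.27, adjusted p = 0.093) at 48 h. Of the calls at 48 h, 18 held in all alternatives tried.

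Between 24 h and 48 h, 9 of 40 members rose and 0 were called lower, where 9.71% of all genes were called, 4.37% higher and 5.34% lower. At an unadjusted p under 0.05, 14 were higher and 2 lower. GABARAPL1 and ASAH1 rose most, by 0.59 ± 0.13 and 0.54 ± 0.06. MITF (0.40 ± 0.12), PSAP (0.40 ± 0.08), WIPI1 (0.39 ± 0.11), GAA (0.36 ± 0.09), LIPA (0.29 ± 0.08), NEU1 (0.27 ± 0.05) and HEXA (0.22 ± 0.06) also rose. Of the 8 proteases 0 were called by limma, with 2 higher and 0 lower at an unadjusted p under 0.05. The 9 became 4 without CAL51 48 h replicate 1, 2 in a fit of the 6 arrays compared alone, and 14 with a covariate for the spread of values on an array. Leaving out 1 array ended 6 of these calls: HEXA (adjusted p = 0.099 without CAL51 48 h replicate 1), GAA (adjusted p = 0.079 without CAL51 48 h replicate 1), MITF (adjusted p = 0.13 without CAL51 48 h replicate 3), GABARAPL1 (adjusted p = 0.0504 without CAL51 48 h replicate 1), WIPI1 (adjusted p = 0.20 without CAL51 48 h replicate 1) and LIPA (adjusted p = 0.12 without CAL51 48 h replicate 2). WIPI1 then changed by 0.25 without CAL51 48 h replicate 1. The mean over probe sets ended the calls of HEXA (0.04, adjusted p = 0.79) and LIPA (0.08, adjusted p = 0.45).

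In untreated CALDOX, 16 of 40 members were higher and 6 lower than in untreated CAL51. The labels do not say whether these CALDOX cultures were free of drug, so resistance and drug at harvest cannot be told apart. Over all genes 25.9% were called, 14.2% higher and 11.7% lower. Among genes brighter than the median 41.4% were called, 22.2% higher and 19.2% lower. The member median was 0.09, beside 0.00 over all genes. Of the 22 lysosomal members 10 were higher and 1 lower, and of the 15 autophagy members 5 were higher and 5 lower, a contrast that was not tested. CSF1R, of the 6 macrophage markers, was higher in this comparison by 0.22 ± 0.07. The summed level of 6 fibroblast markers was 44.3 to 44.8 in untreated CALDOX and 48.4 to 49.0 in untreated CAL51. These markers did not move together. COL1A2 was lower in CALDOX by -2.36 ± 0.05, and the means of PDGFRB (7.72 against 8.97) and COL3A1 (6.34 against 6.91) were lower too. COL1A1 (8.97 against 9.06), DCN (7.70 against 7.64) and LUM (3.91 against 3.84) lay close in the 2 groups. The part of these markers in the result was not tested.

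LAMP2 rose most, by 0.95 ± 0.07 (adjusted p = 4.2e-08), or 1.93-fold. Its other probe sets gave 0.92 and 0.47, both called, and -0.13, not called, so the probe sets of this gene did not all move alike. GAA rose by 0.74 ± 0.09 (adjusted p = 4.9e-06), TPP1 by 0.58 ± 0.05 (adjusted p = 4.7e-07), CTSB by 0.58 ± 0.06 (adjusted p = 7.4e-07) and CTSD by 0.52 ± 0.08 (adjusted p = 5.7e-05). The 3 other TPP1 probe sets gave -0.05 to 0.11 and were not called. LIPA (0.47 ± 0.08), PSAP (0.42 ± 0.08), CTSA (0.42 ± 0.06), HEXA (0.38 ± 0.06) and ATP6V0D1 (0.23 ± 0.05) were also higher. ASAH1 (-0.04 ± 0.06), LAMP1 (-0.03 ± 0.07) and NEU1 (0.06 ± 0.05) were not called.

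On the probe sets used, ATG5 and VMP1 set the lines apart in opposite directions. ATG5, joined to ATG12, carries ATG8 proteins to their lipid. On the log2 scale ATG5 read 10.01, 9.87 and 9.83 in the untreated CAL51 cultures, 9.97, 9.74 and 10.03 after 24 h and 9.84, 9.79 and 9.91 after 48 h, against 10.62, 10.66 and 10.67 in untreated and 10.55, 10.55 and 10.60 in treated CALDOX. Every CALDOX array, treated or untreated, lay above every CAL51 array. The change was 0.75 ± 0.07 (adjusted p = 1.0e-06), or 1.68-fold, and its other probe sets gave 0.61, called, and 0.07, not called. With drug in CAL51 the probe set used was not called at 48 h (-0.05 ± 0.07), while the other two were called lower, at -0.20 and -0.30.

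VMP1 is a membrane protein of the endoplasmic reticulum needed for autophagosome formation, and the microRNA gene MIR21 lies at the end of its locus. The VMP1 values were 8.22, 8.02 and 8.41 in untreated CAL51, 8.39, 8.23 and 8.21 at 24 h, 8.40, 8.37 and 8.43 at 48 h, 7.50, 7.37 and 7.59 in untreated CALDOX and 7.84, 7.71 and 7.86 in treated CALDOX. All CALDOX arrays lay below all CAL51 arrays. VMP1 changed by -0.73 ± 0.09 (adjusted p = 8.9e-06) in untreated CALDOX, on the only probe set carrying its symbol alone. Any probe set that carries a second symbol beside VMP1 was not analysed here. WIPI1 was lower too, by -0.45 ± 0.11 (adjusted p = 0.0076). ATG16L1 (-0.30 ± 0.09), ATG12 (-0.23 ± 0.06) and SQSTM1 (-0.22 ± 0.07) were lower, while WIPI2 (0.18 ± 0.06) and the ATG8 genes GABARAPL1 (0.49 ± 0.13), MAP1LC3B (0.22 ± 0.06) and GABARAPL2 (0.20 ± 0.06) were higher. The mean over probe sets ended 5 calls: HEXA (0.06, adjusted p = 0.57), SQSTM1 (-0.09, adjusted p = 0.20), GABARAPL1 (0.24, adjusted p = 0.084), WIPI2 (0.08, adjusted p = 0.22) and ATG16L1 (-0.24, adjusted p = 0.057). With 1 array left out 8 of the 22 calls were lost: MITF (adjusted p = 0.17 without untreated CAL51 replicate 2), SQSTM1 (adjusted p = 0.095 without untreated CALDOX replicate 1), GABARAPL1 (adjusted p = 0.054 without untreated CAL51 replicate 1), GABARAPL2 (adjusted p = 0.095 without untreated CAL51 replicate 3), MAP1LC3B (adjusted p = 0.088 without untreated CALDOX replicate 2), WIPI2 (adjusted p = 0.16 without untreated CALDOX replicate 3), ATG12 (adjusted p = 0.071 without untreated CALDOX replicate 1) and ATG16L1 (adjusted p = 0.093 without untreated CAL51 replicate 3).

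**Figure D4:**
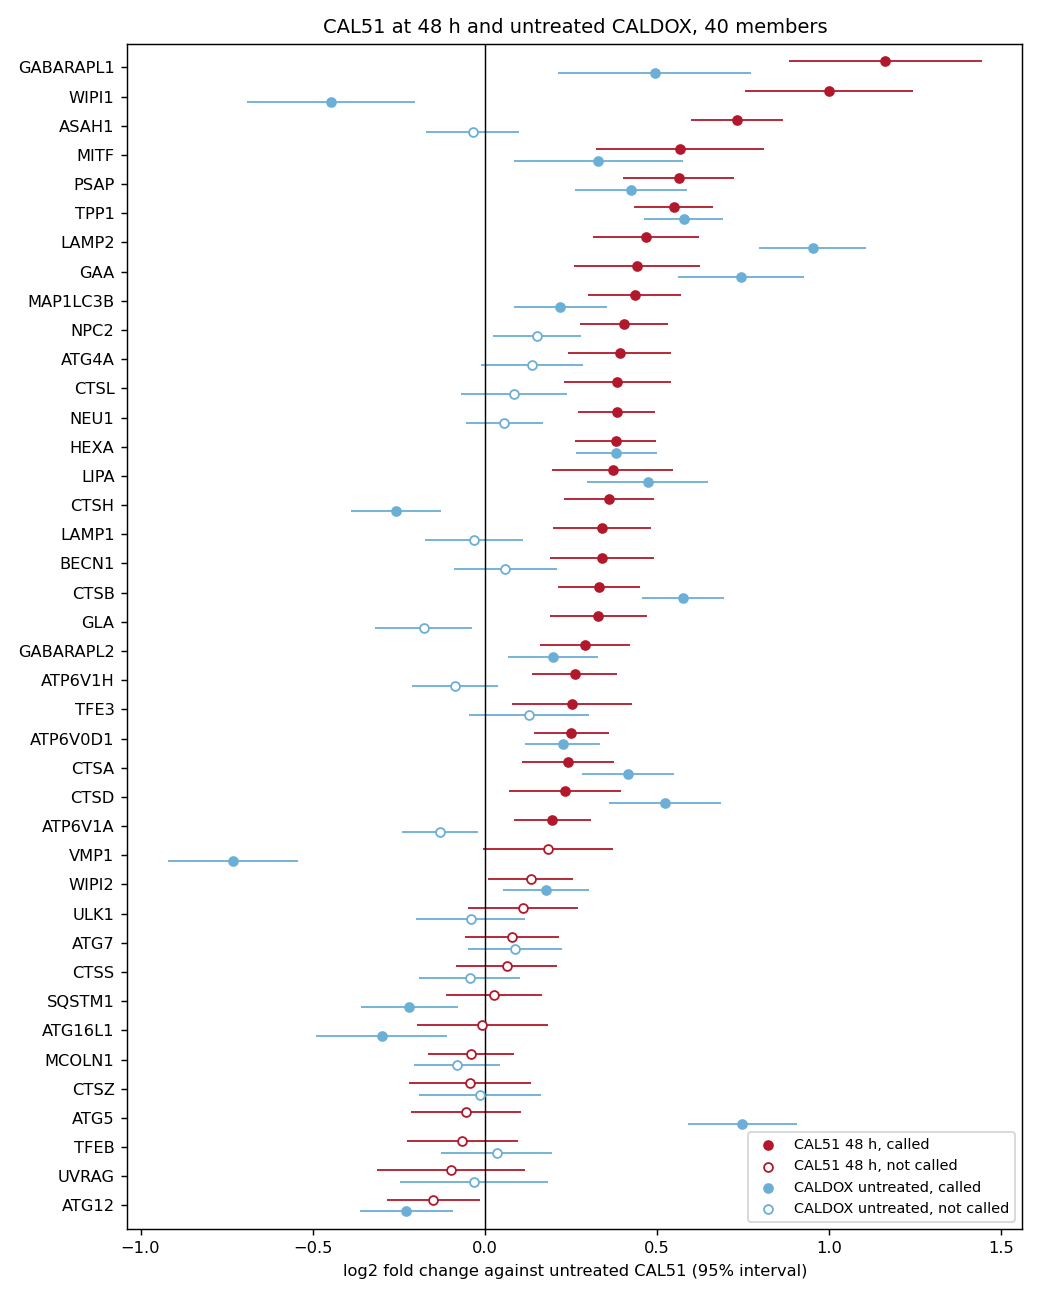
Points are log2 fold changes of the 40 members against untreated CAL51 with 95% intervals, in dark red for CAL51 after 48 h and in light blue for untreated CALDOX; filled points were called. Both series use the same untreated CAL51 arrays; the blue points of ATG5 and VMP1 lie far to the right and to the left of their red ones.

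A direct comparison of untreated CALDOX with CAL51 at 48 h set long-term resistance against acute stress. Of the 40 members, 6 were higher and 17 lower in CALDOX, where 28.2% of all genes were called, 16.3% higher and 11.8% lower. Among genes brighter than the median 43.7% were called, 25.9% higher and 17.8% lower. The member median was -0.13 and that of all genes 0.03. Higher in CALDOX were ATG5 (0.80 ± 0.07), LAMP2 (0.48 ± 0.07), GAA (0.30 ± 0.09), CTSD (0.29 ± 0.08), CTSB (0.25 ± 0.06) and CTSA (0.18 ± 0.06). Lower were WIPI1, by -1.45 ± 0.11 (adjusted p = 6.7e-08), VMP1 (-0.91 ± 0.09), ASAH1 (-0.77 ± 0.06), GABARAPL1 (-0.67 ± 0.13), CTSH (-0.62 ± 0.06) and GLA (-0.51 ± 0.07).

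A further 11 members were lower in CALDOX by smaller amounts, LAMP1, CTSL, NEU1, NPC2, ATP6V1H, ATP6V1A, SQSTM1, MAP1LC3B, BECN1, ATG16L1 and ATG4A, with changes of -0.37 to -0.22. Autophagy members were lower in 8 of 15 cases and higher in 1. TPP1, HEXA and LIPA did not differ beyond the test, with 95% intervals of -0.09 to 0.14, -0.12 to 0.12 and -0.07 to 0.28. The mean over probe sets ended the calls of LAMP2 (0.29, adjusted p = 0.058), ATP6V1H (-0.11, adjusted p = 0.39) and ATG16L1 (-0.18, adjusted p = 0.15). The most variable probe set also ended the call of CTSB (0.19, adjusted p = 0.25). In that fit CTSA, which has only 1 single-symbol probe set, kept its change of 0.18 and lost its call (adjusted p = 0.069). Leaving out 1 array ended 6 of the 23 calls: CTSA (adjusted p = 0.17 without CAL51 48 h replicate 2), GAA (adjusted p = 0.065 without CAL51 48 h replicate 3), SQSTM1 (adjusted p = 0.054 without CAL51 48 h replicate 3), MAP1LC3B (adjusted p = 0.078 without CAL51 48 h replicate 3), ATG16L1 (adjusted p = 0.11 without CAL51 48 h replicate 1) and ATG4A (adjusted p = 0.060 without CAL51 48 h replicate 3).

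When CALDOX was given 4 µM doxorubicin for 24 h, 13 of 40 members rose and 0 were called lower, where 10.3% of all genes were called, 4.82% higher and 5.50% lower. Among genes brighter than the median 18.0% were called, 8.06% higher and 9.92% lower. At an unadjusted p under 0.05, 23 members were higher and 1 lower. By role, 7 of 22 lysosomal and 6 of 15 autophagy members rose. GABARAPL1 rose by 0.81 ± 0.13 (adjusted p = 7.6e-04) and WIPI1 by 0.66 ± 0.11 (adjusted p = 0.0013). SQSTM1 (0.37 ± 0.07), GLA (0.36 ± 0.07), GAA (0.35 ± 0.09), TPP1 (0.33 ± 0.05), BECN1 (0.33 ± 0.07), MAP1LC3B (0.32 ± 0.06), VMP1 (0.32 ± 0.09), CTSL (0.31 ± 0.07), ASAH1 (0.28 ± 0.06), HEXA (0.23 ± 0.06) and ATP6V1H (0.21 ± 0.06) rose as well. SQSTM1 arrays lay at 11.06 to 11.10 in treated against 10.64 to 10.80 in untreated CALDOX. If untreated CALDOX was kept in drug, the 4 µM dose and the drug-free passages before it cannot be told apart here.

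After drug, WIPI1 in CALDOX stood at 7.05 to 7.15, overlapping untreated CAL51, 6.77 to 7.10, and below CAL51 at 24 h, 7.39 to 7.69. VMP1 in treated CALDOX, at 7.71 to 7.86, lay below all CAL51 arrays. CTSB and CTSH, which set the lines apart, changed by -0.01 ± 0.06 and -0.04 ± 0.06 with drug in CALDOX and were not called. The count of 13 was 8 without treated CALDOX replicate 1, 25 with array weights and 20 with the covariate for array spread. The mean over probe sets ended the calls of HEXA (0.07, adjusted p = 0.65), ASAH1 (0.12, adjusted p = 0.17) and ATP6V1H (0.05, adjusted p = 0.82), and the most variable probe set also that of SQSTM1 (0.30, adjusted p = 0.11). Calls lost with 1 array left out were 5: CTSL (adjusted p = 0.062 without treated CALDOX replicate 2), HEXA (adjusted p = 0.062 without treated CALDOX replicate 2), GAA (adjusted p = 0.073 without untreated CALDOX replicate 3), ATP6V1H (adjusted p = 0.13 without treated CALDOX replicate 3) and VMP1 (adjusted p = 0.14 without untreated CALDOX replicate 2).

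The 24 h responses of the 2 lines, which share no arrays, were set side by side. Of the 13 members called in each line, 8 were the same: WIPI1, GABARAPL1, TPP1, CTSL, GLA, BECN1, MAP1LC3B and ATP6V1H. That is 61.5% of each, beside 45.9% of the genes higher in CAL51 and 54.9% of those higher in CALDOX over all genes, and 49.6% and 56.8% among genes brighter than the median. The Pearson correlation of the 2 log2 fold changes was 0.75 over the 40 members, 0.55 over all genes and 0.65 over the brighter ones, a description across genes, which are not independent replicates. Whether members differ from other genes in this was not tested. The difference of the responses was called for 0 of 40 members with limma, where 1.43% of all genes were called, 0.576% higher and 0.855% lower, and for 0 in all alternatives tried. At an unadjusted p under 0.05, 3 were higher and 3 lower, and the lowest adjusted p was 0.32. Across all 7 comparisons CTSZ, CTSS, MCOLN1, TFEB, ULK1, ATG7 and UVRAG were called in none.

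The intervals of that difference, CALDOX minus CAL51, were wide for the leading genes. They ran from -0.16 to 0.63 for GABARAPL1 and from -0.29 to 0.40 for WIPI1. For TPP1 the interval was -0.30 to 0.03 and for BECN1 -0.21 to 0.22. The doses were 0.4 µM and 4 µM, so line and dose cannot be told apart in this comparison.

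**Figure D5:**
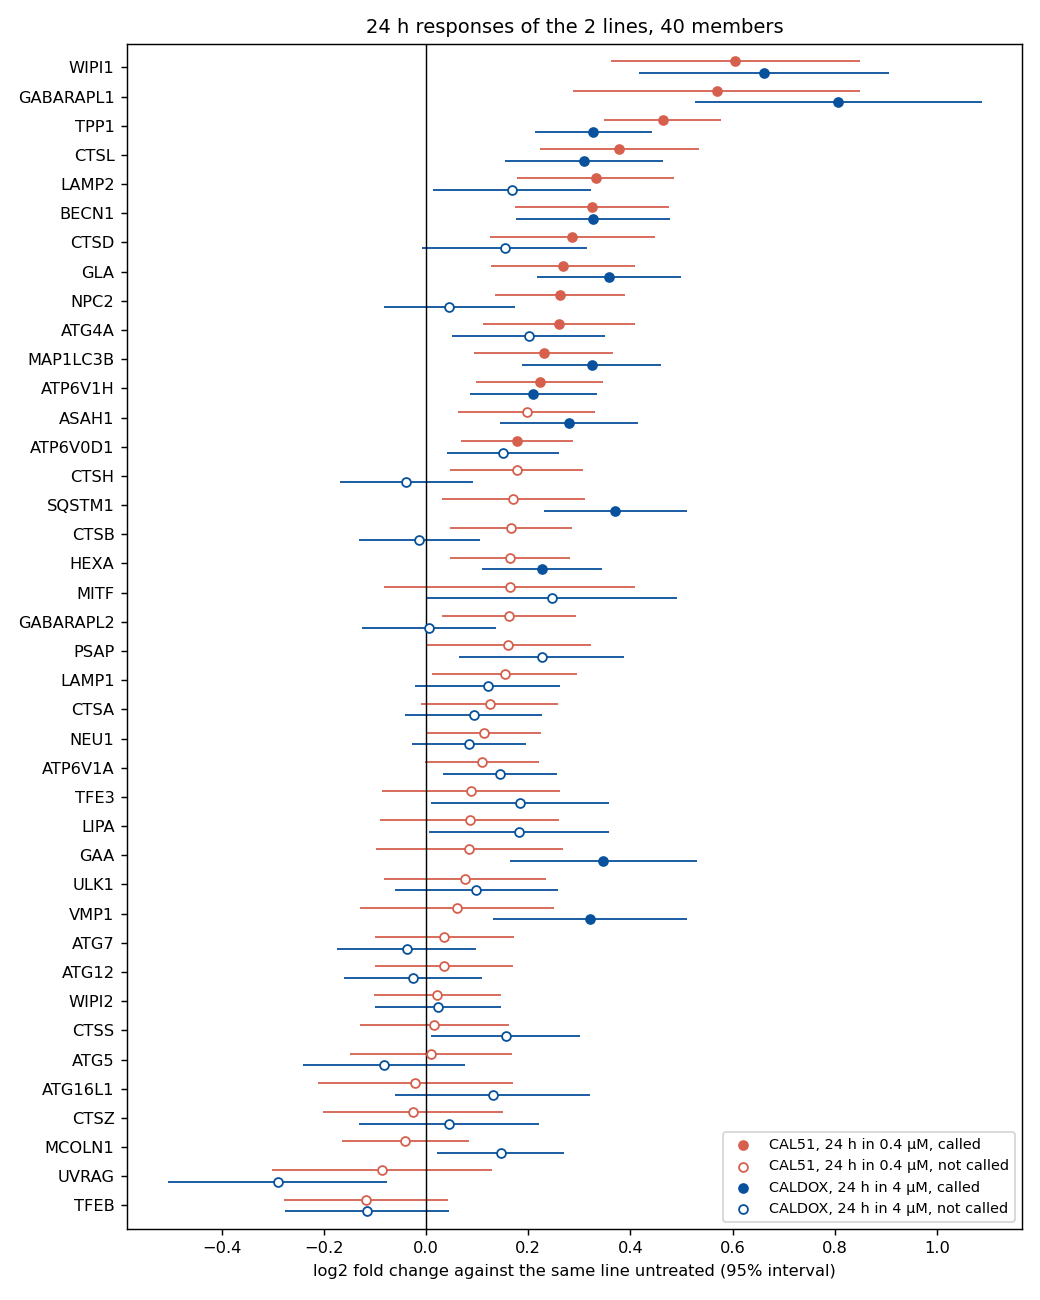
Points are log2 fold changes of the 40 members against the untreated cultures of the same line, with 95% intervals. Red is CAL51 in 0.4 µM and blue is CALDOX in 4 µM doxorubicin, both for 24 h. Filled points were called. WIPI1 and GABARAPL1 lead in both lines, and the intervals of the 2 lines overlap for most members.

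Lysosomal genes with and without the TCACGTG motif in the promoter were set side by side at 48 h. Of the 7 with it, 6 rose, the exception being MCOLN1, and of the 7 without it among the matched promoters, 6 rose. Median changes were 0.25 with and 0.37 without the motif. In untreated CALDOX the medians were 0.23 and 0.08. LAMP1, with 5 copies, changed by 0.34 ± 0.07 at 48 h and -0.03 ± 0.07 in CALDOX, and GAA, with the full palindrome, by 0.44 ± 0.09 and 0.74 ± 0.09. Neither GABARAPL1 nor WIPI1 has these letters in its promoter window. The lysosomal members ASAH1, ATP6V1A, ATP6V1H, CTSB, CTSS, HEXA, LAMP2 and PSAP had no matched promoter and are not in these counts and medians. The part of the motif in the changes was not tested.

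A wider list of 156 other lysosome and autophagy genes, of which 146 were tested, was followed in the same comparisons. Like the members, this list was chosen with earlier results of these data known. At 24 h 21 rose and 4 fell, which is 14.4% and 2.74%, beside 5.77% and 4.34% of all genes. At 48 h 48 rose and 7 fell, 32.9% and 4.79%, beside 10.5% and 11.2% of all genes. The median changes were 0.03 and 0.11. TP53INP1, DRAM1 and SESN1, all known as p53 targets, led at both times. TP53INP1, which binds ATG8 proteins, rose by 1.49 ± 0.09 and 2.19 ± 0.09, and DRAM1, a lysosomal membrane protein that promotes autophagy, by 1.33 ± 0.06 and 1.53 ± 0.06. SESN1, a sestrin that restrains mTORC1, rose by 1.29 ± 0.05 and 1.47 ± 0.05. GNPTAB, which makes the mannose 6-phosphate tag of lysosomal enzymes, rose by 0.72 ± 0.12 at 24 h, and SESN3 by 0.95 ± 0.14 at 48 h.

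Genes of the wider list that fell included TMEM41B (-0.48 ± 0.08), a partner of VMP1, MCOLN2 (-0.30 ± 0.08), FLCN (-0.27 ± 0.08) and RRAGC (-0.25 ± 0.07) at 24 h. At 48 h ATG3 (-0.47 ± 0.07), the enzyme that hands ATG8 proteins to lipid, ATP6V0A2 (-0.40 ± 0.10), NPC1 (-0.30 ± 0.07) and the mannose 6-phosphate receptor M6PR (-0.29 ± 0.06) fell. Hydrolases of the wider list rose in 10 of 25 cases and fell in 1 at 48 h, and core autophagy genes rose in 10 of 40 and fell in 2. Proton pump subunits rose in 5 of 18 cases and fell in 1. Over all genes 10.5% rose and 11.2% fell at 48 h, and 16.8% and 19.1% among those brighter than the median.

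From 24 h to 48 h, 23 genes of the wider list rose and 3 fell, 15.8% and 2.05%, beside 4.37% and 5.34% of all genes. MAP1LC3C (0.74 ± 0.17), TP53INP1 (0.70 ± 0.09), DDIT4 (0.59 ± 0.07) and SESN3 (0.58 ± 0.14) rose most, and ATG3 (-0.26 ± 0.07), NPC1 (-0.25 ± 0.07) and M6PR (-0.24 ± 0.06) fell. MAP1LC3C is an ATG8 family gene, and DDIT4 encodes a stress-induced inhibitor of mTORC1.

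In untreated CALDOX 39 genes of the wider list were higher and 24 lower, 26.7% and 16.4%, beside 14.2% and 11.7% of all genes. DRAM1 (1.39 ± 0.06), TP53INP1 (1.29 ± 0.09), MAN2B1 (1.22 ± 0.06), lysosomal alpha-mannosidase, and SLC38A9 (0.97 ± 0.09), an arginine sensor of the lysosome, were the highest. GALC, which splits galactosylceramide, was lower by -1.24 ± 0.12 (adjusted p = 7.7e-07), followed by SESN3 (-1.01 ± 0.14), the sulfatase ARSB (-0.85 ± 0.09) and the cathepsin CTSV (-0.65 ± 0.07). Set against CAL51 at 48 h, 24 of these genes were higher in CALDOX, 16.4% beside 16.3% of all genes, and 40 lower, 27.4% beside 11.8%. The named genes were SESN3 (-1.95 ± 0.14), GALC (-1.52 ± 0.12), MAP1LC3C (-1.16 ± 0.17) and CTSV (-1.07 ± 0.07) as the lowest and SLC38A9 (0.95 ± 0.09), FNIP2 (0.87 ± 0.11), GUSB (0.63 ± 0.08) and ATG4C (0.49 ± 0.10) as the highest.

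Treated CALDOX had 18 genes of the wider list higher and 8 lower than untreated CALDOX, 12.3% and 5.48%, beside 4.82% and 5.50% of all genes. SESN3 (1.02 ± 0.14), DRAM1 (0.90 ± 0.06), TP53INP1 (0.82 ± 0.09) and SESN1 (0.71 ± 0.05) rose, and DEPTOR (-0.78 ± 0.09), an inhibitor within mTOR complexes, ATP6V0A2 (-0.55 ± 0.10), BNIP3 (-0.54 ± 0.08) and CTSV (-0.43 ± 0.07) fell. The difference of the responses, CALDOX minus CAL51, was called for 5 of the 146, all negative. They were DEPTOR (-0.74 ± 0.12), TP53INP1 (-0.67 ± 0.13), CTSV (-0.66 ± 0.10), SESN1 (-0.58 ± 0.08) and DRAM1 (-0.43 ± 0.08), the last named after its value was seen, and dose and line again cannot be told apart. This count was 8 with quantile normalization repeated, 11 with a covariate for the spread of values on an array and 14 with array weights.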

How the data were processed

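RNA from 15 cultures was measured on Affymetrix arrays with 54675 probe sets, 3 cultures in each of 5 groups. The deposited log2 values were made by the authors with RMA, per the submitters' processing notes. No source used here gives its version, and the log base was taken as 2 from the range of the values, 3.08 to 14.76. RMA quantile-normalizes arrays to one distribution, so a shift of total RNA is not seen. With 3 arrays a group, their number limits the precision.

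Of the probe sets, 41097 carry 1 gene symbol, 1801 several and 11777 none; the brightest single-symbol probe set by mean over 15 arrays stood for each of 19775 genes. Group means of all 5 groups were fitted in limma 3.58.1 (lmFit and eBayes, R 4.3.3; 10 residual and 5.40 prior degrees of freedom), with two-sided p-values adjusted by Benjamini-Hochberg over all genes. A gene with adjusted p under 0.05 is written as called, higher or lower, and values given for further probe sets of a gene come from the same model fitted over probe sets. The steps were tested on simulated data. Replicates are independent cultures per the labels, so p-values measure the spread between cultures of 1 line. Members called with an absolute change of at least 0.5 were given by array, and of the wider list up to 4 highest and 4 lowest called genes per comparison were named. The members and lists were chosen with earlier results of these data known. The main fit did not pair cultures by replicate number. Of 30 same-numbered pairs, 8 had deviations correlated over 0.1. The median correlation was 0.002 for same-numbered and 0.012 for other-numbered pairs, which cannot exclude pairing. Alternatives were other normalizations, probe sets, filters, fits, a covariate, a replicate block and leaving out each array.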

Additional observations from a re-analysis of the deposited data

How the results depend on the processing

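Of the 107 calls of members, 55 held in all 24 alternative settings, 18 of 27 at 48 h and 3 of 13 at 24 h. With replicate number as a block the members called were 11 at 24 h, 27 at 48 h, 8 from 24 h to 48 h, 22 for untreated CALDOX, 13 for treated CALDOX, 0 for the difference of responses and 22 for CALDOX against CAL51 at 48 h; the block ended 4 calls (ATP6V0D1 and MAP1LC3B at 24 h, LIPA from 24 h to 48 h, CTSA against CAL51 at 48 h). Counts that moved by over 1.5 times follow. The cause was not tested, except that fitting only the arrays compared leaves fewer arrays for the spread. That fit called 5 members and 10 genes of the wider list at 24 h, against 13 and 25, and 2 and 7 from 24 h to 48 h, against 9 and 26. Array weights called 38 of the wider list at 24 h, and 25 members and 48 of the wider list in treated CALDOX, against 13 and 26. A covariate for how widely the values of an array spread gave 14 members and 40 of the wider list from 24 h to 48 h, and 20 members in treated CALDOX. For the difference of the 24 h responses in the wider list, 5 became 8 with quantile normalization repeated, 14 with array weights and 11 with the covariate. With 1 array left out, the members called ranged from 7 to 16 at 24 h, 4 to 10 from 24 h to 48 h and 8 to 14 in treated CALDOX. The wider list ranged from 14 to 29, 15 to 27 and 16 to 29. Taking the mean over probe sets turned ATP6V1H at 48 h to -0.026 and TFE3 at 48 h to -0.025. The most variable probe set gave ATP6V1H -0.10 at 24 h, -0.27 at 48 h, -0.026 in treated CALDOX and 0.033 for CALDOX against CAL51 at 48 h, and TFE3 -0.14 at 48 h. Dim genes such as WIPI1 and GAA lie nearer the array background, where changes are compressed.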

Other observations

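CTSS, a cysteine protease best known from antigen-presenting cells, gave different readings by probe set. The brightest one was called in no comparison. A dimmer one changed by 0.52 (adjusted p = 0.025 in limma over probe sets) at 24 h and 0.45 (adjusted p = 0.032) at 48 h in CAL51, and by 0.68 (adjusted p = 0.0050) in treated CALDOX. The second brightest gave 0.10, 0.21 and 0.18 in these comparisons and was not called.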
